A study of Mus musculus with 10 samples.

Results

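The genes of cholesterol and fatty acid synthesis were examined in 10 mouse teratomas that carried 1 of 3 forms of the tumour suppressor VHL. The list held 34 genes, chosen by name with earlier results of these data known. It had 7 genes of the mevalonate pathway, 11 enzymes that turn farnesyl diphosphate into cholesterol and 5 regulators. The rest were 5 genes of fatty acid synthesis and 6 fatty acid desaturases and elongases. A gene was measured through the probe sets whose annotation named it alone, and where there were several, the one brightest on average stood for the gene. By this rule 33 of the 34 genes were measured, among 18820 genes in all. Acat2, which makes the acetoacetyl-CoA that feeds the mevalonate pathway, had no probe set of its own.

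The tumours grew from J1 embryonic stem cells of the Sv/129 strain that were Vhl-/- and had received a human VHL cDNA by electroporation. In all 3 groups mouse Vhl was therefore disrupted, and the groups differed in the human cDNA, which was wildtype (3 arrays), R167Q (3 arrays) or P81S (4 arrays). Cells were injected under the skin of female nu/nu mice, which are athymic, and tumours were taken at a largest dimension of 1 cm. The labels call the P81S tumours resistant to apoptosis and the others apoptotic, and the series title links P81S to trichloroethylene and to metabolism. The 4 P81S arrays came from 2 clones with 2 replicates each, and which arrays share a clone is not given in the sources used here. The promoter that drives the cDNA and the ages of the mice are not given either. Differences between clones and differences between genotypes cannot be told apart. The labels call the arrays biological replicates without naming separate cultures or mice, so the p-values measure only the spread between these samples.

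Cholesterol is built from acetyl-CoA through mevalonate, farnesyl diphosphate, squalene and lanosterol, and fatty acids are built from acetyl-CoA through malonyl-CoA. Most of these genes are known targets of the sterol regulatory element-binding proteins, which are held in the endoplasmic reticulum by Scap and the Insig proteins while sterol is plentiful and are cut free to enter the nucleus when it is scarce. Srebf2 mainly drives the cholesterol enzymes and Srebf1 the fatty acid enzymes. In the brain, cholesterol is made locally, and desaturases shape the polyunsaturated fatty acids of neural membranes.

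Promoter sequences were taken from RefSeq on build GRCm38.p6 for the 28 members that had an entry (37 entries, each running from 250 bases before a transcript start to 50 after it). The entries were searched on both strands for the sterol regulatory element TCACNCCAC (reverse strand GTGGNGTGA), the NF-Y box CCAAT (reverse strand ATTGG), the Sp1 box GGGCGG and the E-box CACGTG. Matches of different motifs overlapped 0 times in the member promoters. The 250 bases before the start are given for 3 members that were higher in P81S. Capitals mark the sterol regulatory element and the NF-Y boxes: 1 stretch holds both, 1 holds NF-Y boxes without the element, and 1 holds neither of them.
Hmgcs1, chr13:119690101-119690350, plus strand: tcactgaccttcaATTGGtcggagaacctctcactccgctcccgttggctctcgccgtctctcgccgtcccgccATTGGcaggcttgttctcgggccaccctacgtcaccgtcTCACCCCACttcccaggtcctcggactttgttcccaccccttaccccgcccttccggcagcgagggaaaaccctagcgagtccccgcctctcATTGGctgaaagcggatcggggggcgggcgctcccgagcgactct
Msmo1, chr8:64733579-64733828, minus strand: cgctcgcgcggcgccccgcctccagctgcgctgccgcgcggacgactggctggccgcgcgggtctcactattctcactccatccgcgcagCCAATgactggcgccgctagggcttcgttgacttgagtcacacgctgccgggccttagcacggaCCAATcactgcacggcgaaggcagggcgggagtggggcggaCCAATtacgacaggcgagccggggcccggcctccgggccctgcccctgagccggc
Fads2, chr19:10101504-10101753, minus strand: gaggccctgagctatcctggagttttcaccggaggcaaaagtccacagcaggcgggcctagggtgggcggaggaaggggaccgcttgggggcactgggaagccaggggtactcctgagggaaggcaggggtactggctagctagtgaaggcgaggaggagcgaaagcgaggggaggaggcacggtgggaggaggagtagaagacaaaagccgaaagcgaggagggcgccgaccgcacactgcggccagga
The Hmgcs1 stretch holds 1 sterol regulatory element, which begins 137 bases before the start, and 3 NF-Y boxes. The Msmo1 stretch holds 3 NF-Y boxes and no such element, and the Fads2 stretch holds neither. Sp1 boxes, left in lower case, number 2 in the Hmgcs1 stretch, 2 in Msmo1 and 1 in Fads2. Fdps, Fdft1, Sqle, Scd1, Scd2 and Fads1 had no entry, so their promoters were not searched. Among the 28 members with an entry, only Hmgcs1 held the strict sterol regulatory element (3.57%, against 1.44% of all genes with an entry). An NF-Y box stood in 23 of 28 members (82.1%) against 41.1% of genes, and counted by entry in 24 of 37 (64.9%) against 37.4% of 32851. An Sp1 box stood in 22 of 28 members (78.6%) against 38.2% of genes, and an E-box in 6 of 28 (21.4%) against 8.09%. The NF-Y box was found in 11 of 12 members called in P81S that had an entry and in 12 of 15 measured members that were not called. These matches describe letters in a window and not sites in use.

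All values are deposited log2 values, so differences are log ratios of array signal, and errors beside differences are standard errors from the model. Array medians lay between 6.97 and 7.11 log2. Arrays of a group correlated across genes, which are not independent replicates, with r of 0.989 to 0.993 in wildtype, 0.988 to 0.989 in R167Q and 0.966 to 0.989 in P81S. Mouse Vhl read 8.49 to 8.90 log2 in P81S, against 6.85 to 6.95 in wildtype and 6.83 to 7.21 in R167Q. The position of its probes relative to the disruption is unknown, so this does not check the labels. The mean of 3 Y-linked genes was 4.26 to 4.70 log2 in wildtype, 8.42 to 9.28 in P81S and 9.12 to 9.52 in R167Q, and its part in the differences was not tested.

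In P81S against wildtype, 11 of the 33 measured genes were higher and 0 were lower (limma, adjusted p under 0.05 over all genes). This is 33.3% of the members, against 34.7% of all genes called in this comparison, so the share called was near the background. The members' direction differed from that of all genes: 17.2% of genes were called higher and 17.5% lower. The genes called were the mevalonate enzymes Hmgcs1, Mvk and Pmvk, the late sterol enzymes Msmo1 and Sc5d, malic enzyme Me1, and the desaturases and elongase Scd1, Scd2, Fads1, Fads2 and Elovl5. The median difference was 0.31 log2 over the members and 0.01 over all genes, and 26 members had a positive difference. All arrays of P81S lay above all of wildtype in 12 members and below them in 0, against 19.9% and 20.7% of all genes (40.6% in either direction).

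In P81S against R167Q, 15 of 33 members were higher and 0 were lower. This is 45.5% of the members, against 22.5% of all genes called, of which 12.4% were higher and 10.1% lower. The calls were Hmgcs1, Mvk, Pmvk, Fdps, Cyp51, Tm7sf2, Msmo1, Sc5d, Dhcr7, Srebf2, Scd1, Scd2, Elovl5, Fads1 and Fads2. The median difference was 0.43 log2 over the members and 0.02 over all genes, with 29 positive differences. All P81S arrays lay above all R167Q arrays in 14 members, against 16.5% of all genes, and below them in 0, against 14.2% (30.7% in either direction). Both comparisons use the same 4 P81S arrays. Leaving out wildtype replicate 2 left 7 members higher against wildtype, while the calls over all genes fell from 6530 to 5199. Against R167Q the count was 6 without R167Q replicate 1, 7 without R167Q replicate 3 and 9 without P81S replicate 3, and the calls over all genes fell from 4234 to 2328, 2877 and 3336 in the same settings.

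**Figure D1:**
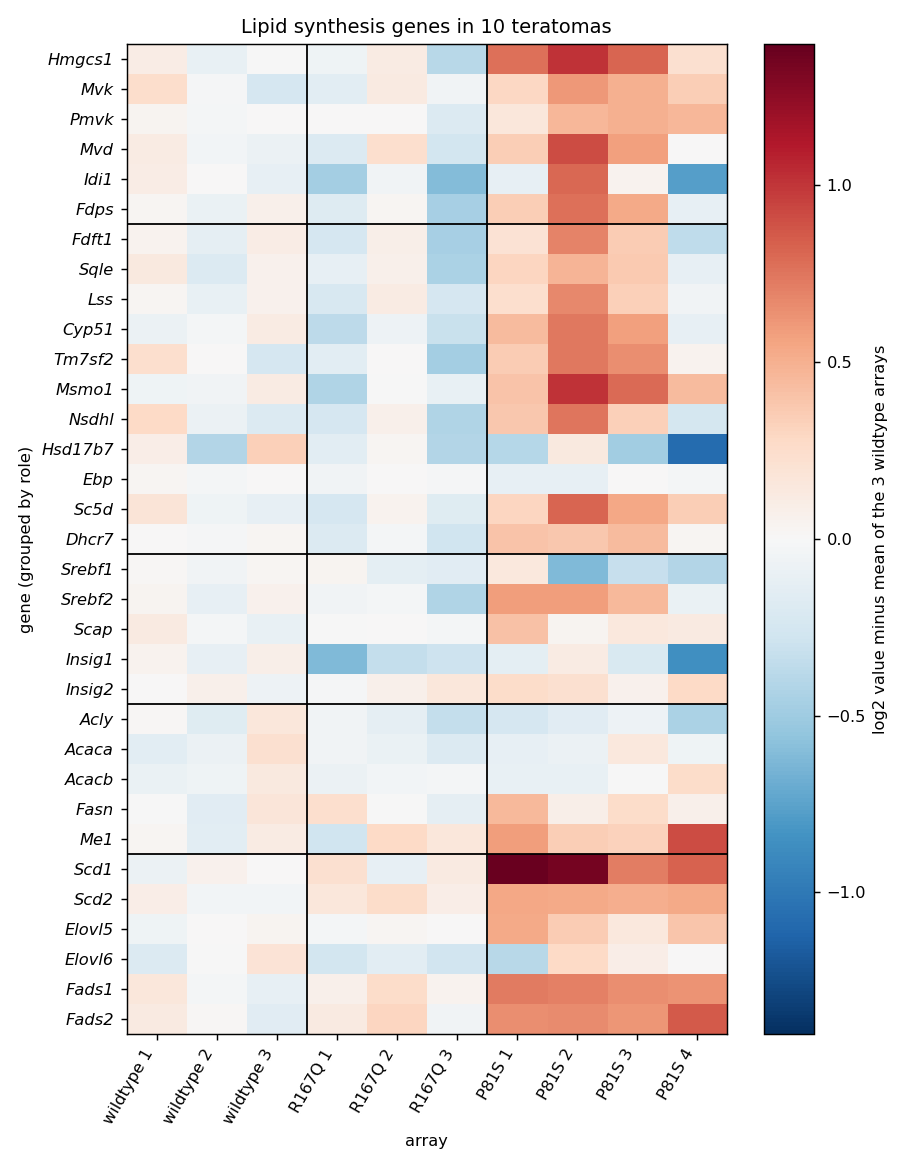
Log2 value of each of the 33 measured genes (rows, grouped by role) in each of the 10 arrays (columns), as the difference from the mean of the 3 wildtype arrays, by colour. Desaturase rows are raised in all 4 P81S arrays, while most rows of the cholesterol enzymes are strongest in P81S replicate 2 and weakest in P81S replicate 4.

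**Figure D2:**
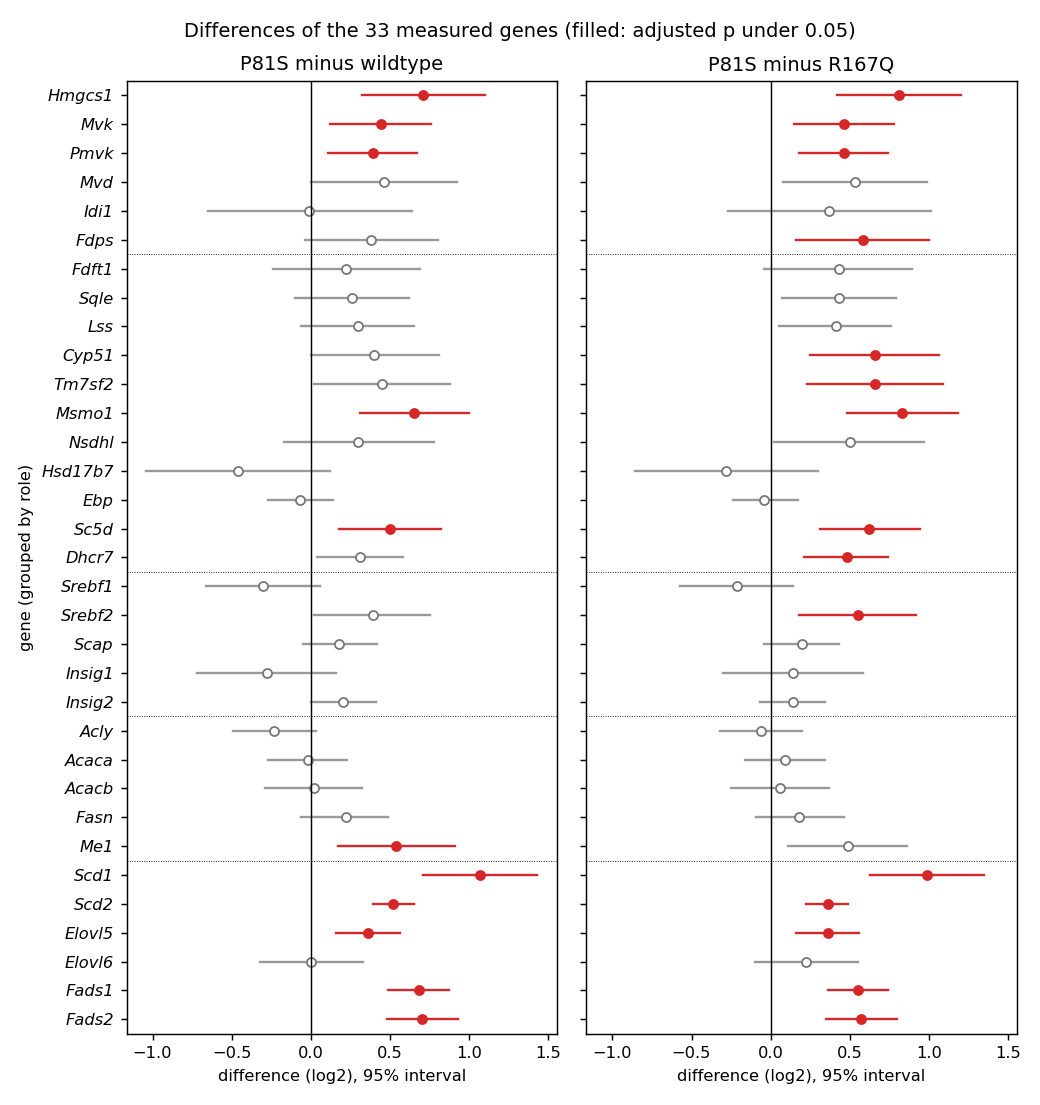
Difference between groups for each gene in log2 units, with its 95% interval, in 1 panel for P81S minus wildtype and 1 for P81S minus R167Q. Filled points passed an adjusted p of 0.05: there are 11 in the former and 15 in the latter, and all lie above 0.

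The tumours also differed in their cell type markers. The mean over 7 neuron markers was 11.65 to 12.04 log2 in P81S, against 10.70 to 11.16 in wildtype and 10.89 to 11.43 in R167Q. Of these, 7 of 7 were higher against wildtype. Over 8 astrocyte markers it was 10.88 to 11.61 in P81S, against 9.98 to 10.26 in wildtype and 10.07 to 10.78 in R167Q. Of these, 5 of 8 were higher against wildtype. Over 8 pluripotency genes it was 5.92 to 7.74 in P81S, against 10.13 to 10.95 in wildtype and 9.13 to 10.25 in R167Q. All 8 were lower against wildtype. P81S tumours thus had more transcript of most of these neuron and astrocyte markers, and less of the pluripotency genes, than wildtype tumours. Of all genes, 17.2% were higher and 17.5% lower in that comparison. Against R167Q, 6 of 7 neuron and 2 of 8 astrocyte markers were higher, against 12.4% of all genes. All 8 pluripotency genes were lower against R167Q, against 10.1% of all genes. The proliferation list mean was 8.45 to 9.49 in P81S, against 10.46 to 10.83 in wildtype and 10.15 to 10.48 in R167Q, with 6 of 7 genes lower against wildtype. The part of cell makeup in the lipid synthesis differences was not tested, and in bulk tumour more cells of a type and more RNA per cell cannot be told apart.

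Markers of cells known for making or storing lipid were compared in the same way. The adipocyte list mean was 5.95 to 6.65 log2 in P81S, against 5.87 to 6.03 in wildtype and 5.99 to 6.46 in R167Q. Of its 7 genes, 1, Cidea, was called higher against wildtype. Of 8 liver and yolk sac markers 0 were higher and 3 lower against wildtype, with list means of 5.92 to 8.06 in P81S, against 7.04 to 8.38 in wildtype and 6.58 to 7.25 in R167Q. Of 6 oligodendrocyte markers 0 were called, and their mean was lower in P81S replicate 1 than in any other array. It was 8.35 to 9.42 in the other P81S arrays, against 8.30 to 8.80 in wildtype and 8.39 to 8.92 in R167Q. Of 8 macrophage markers 0 were called, with means of 9.04 to 9.73 in P81S, against 8.96 to 9.35 in wildtype and 9.24 to 9.86 in R167Q. The mean of squamous and sebaceous markers set 1 array apart. It was 8.53 in P81S replicate 1 and 6.67 to 6.94 in the other P81S arrays, against 6.44 to 6.78 in wildtype and 6.55 to 6.88 in R167Q. Single markers differed from this: Lor read 7.64 to 8.45 in P81S against 5.93 to 6.75 elsewhere, and Krt1 6.62 to 8.57 against 6.02 to 6.24. Mc5r went the other way, at 6.92 to 7.85 in P81S against 7.91 to 8.79 elsewhere. Of the 8 markers in this list, 2 were called higher and 1 lower against wildtype.

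**Figure D3:**
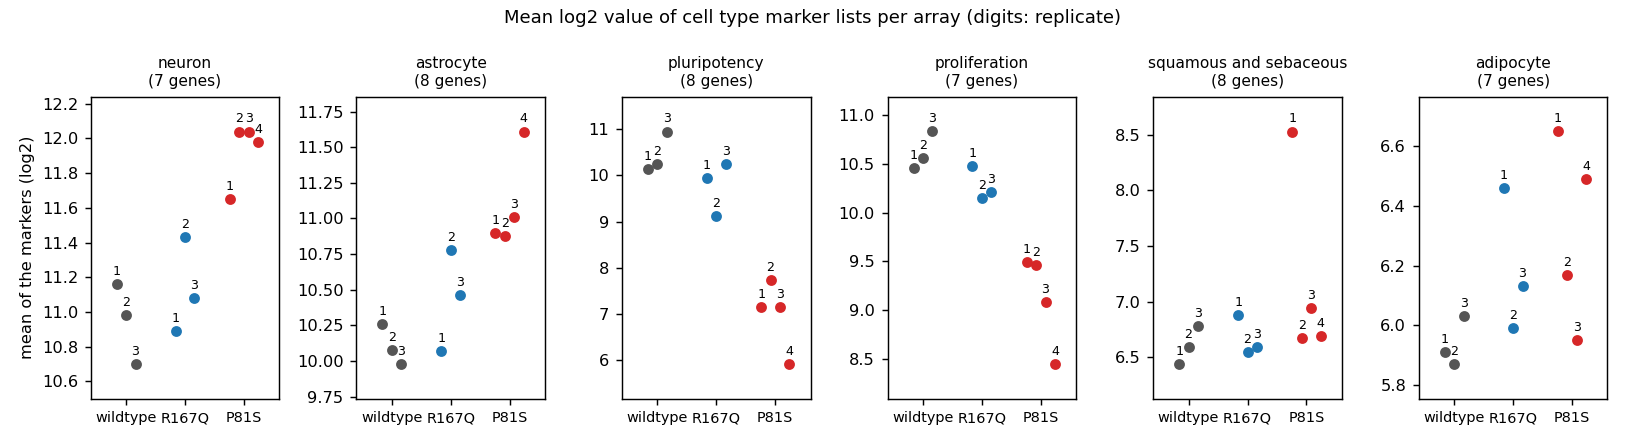
Mean log2 value of 6 marker lists (neuron, astrocyte, pluripotency, proliferation, squamous and sebaceous, adipocyte) in each array, with digits giving the replicate number, for P81S, wildtype and R167Q. Neuron means are 11.65 to 12.04 in P81S against 10.70 to 11.43 elsewhere, and pluripotency means are 5.92 to 7.74 against 9.13 to 10.95.

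The desaturases and elongases were the role with the largest share of members called in P81S against either other genotype. Against wildtype 5 of 6 were higher with a median difference of 0.60 log2, and against R167Q 5 of 6 with a median of 0.45. This is 83.3% in each, against 17.2% and 12.4% of all genes called higher. Each of the 4 P81S arrays stood 0.57 to 0.60 log2 above the wildtype mean in the median over the 6 genes. Single genes varied more: the SD among the P81S arrays ran from 0.01 log2 in Scd2 to 0.34 in Scd1. Replicate 1 was the highest P81S array in 4 of the 6 genes and replicate 3 the lowest in 4.

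Scd1, the stearoyl-CoA desaturase that makes oleate and palmitoleate, showed the largest difference among the members. In log2 units, P81S replicates 1 to 4 read 11.73, 11.69, 11.07 and 11.18, against 10.27, 10.41 and 10.36 for the 3 wildtype arrays and 10.57, 10.23 and 10.48 for the 3 R167Q arrays. Values of later genes are in the same array order. All P81S arrays were above all others, and replicates 1 and 2 were the higher pair. The difference was 1.07 ± 0.16 log2 against wildtype (2.1-fold, adjusted p = 0.000553) and 0.99 ± 0.16 against R167Q (1.99-fold, adjusted p = 0.00209). Scd2, the form known for its high level in brain, read 13.16, 13.15, 13.13 and 13.15 log2 in P81S, against 12.71, 12.58 and 12.58 in wildtype and 12.78, 12.88 and 12.71 in R167Q. The P81S arrays differed by an SD of only 0.01, the smallest among the members, and were above all others. Its difference was 0.52 ± 0.06 log2 against wildtype (1.43-fold, adjusted p = 0.00012) and 0.36 ± 0.06 against R167Q (1.28-fold, adjusted p = 0.0024). Scd1 and Scd2 are close copies, and signal shared between their probes cannot be separated here.

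The front-end desaturases of polyunsaturated fatty acids differed in a similar way. Fads1 read 11.99, 11.97, 11.91 and 11.89 log2 in P81S, against 11.42, 11.23 and 11.14 in wildtype and 11.33, 11.52 and 11.31 in R167Q. Its groups did not overlap between P81S and either other genotype. The difference was 0.68 ± 0.09 log2 against wildtype (1.6-fold, adjusted p = 0.000191) and 0.55 ± 0.09 against R167Q (1.47-fold, adjusted p = 0.0016). Fads2, which acts upstream of Fads1, read 12.67, 12.68, 12.64 and 12.88 log2 in P81S, against 12.15, 12.04 and 11.86 in wildtype and 12.15, 12.32 and 11.97 in R167Q. Here too all P81S arrays were the highest, with replicate 4 at the top. Its difference was 0.70 ± 0.10 log2 against wildtype (1.63-fold, adjusted p = 0.000417) and 0.57 ± 0.10 against R167Q (1.49-fold, adjusted p = 0.00298).

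Of the elongases, Elovl5, which lengthens polyunsaturated fatty acids, read 11.41, 11.24, 11.03 and 11.27 log2 in P81S, against 10.82, 10.88 and 10.92 in wildtype and 10.85, 10.91 and 10.88 in R167Q. The P81S arrays were above the rest and more spread. The difference was 0.36 ± 0.09 log2 against wildtype (1.29-fold, adjusted p = 0.00948) and 0.36 ± 0.09 against R167Q (1.28-fold, adjusted p = 0.0166). The call against R167Q ended without R167Q replicate 1 (adjusted p = 0.069) or R167Q replicate 3 (adjusted p = 0.0503), and with array weights (0.23 log2, adjusted p = 0.0534). Elovl6, which lengthens palmitate to stearate, was not called, with a difference of 0.00 ± 0.15 log2 against wildtype (95% interval -0.32 to 0.33) and 0.22 ± 0.15 against R167Q. Its P81S values ran from 10.35 to 11.02 around wildtype values of 10.55 to 10.93. Without P81S replicate 1 it was called against R167Q (0.35 log2, adjusted p = 0.0437).

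**Figure D4:**
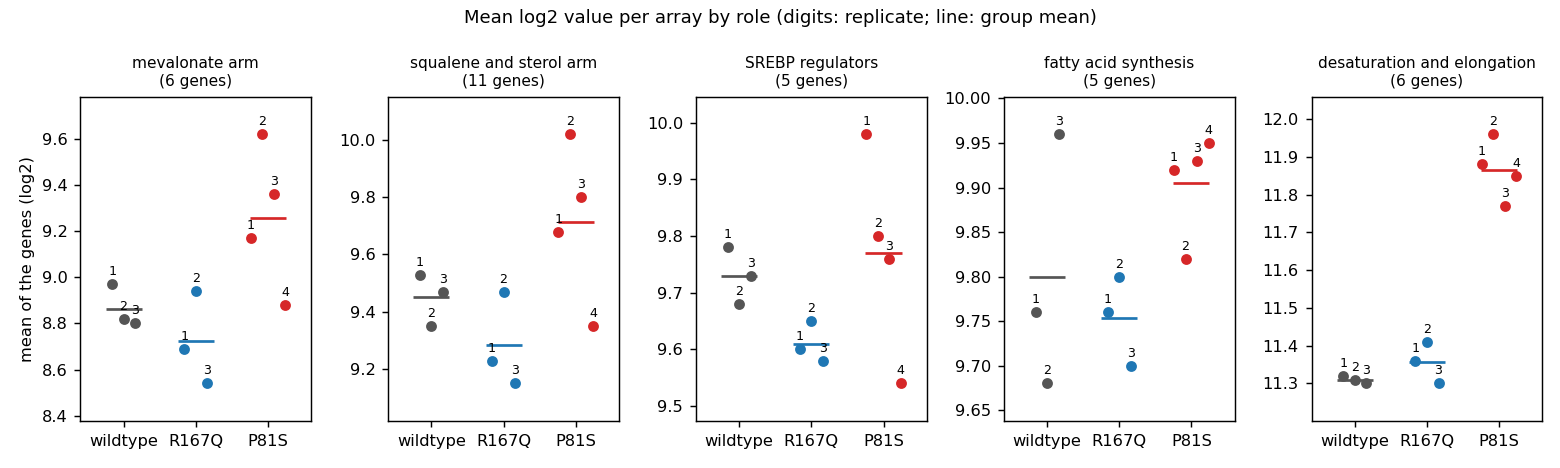
Mean log2 value per array over the genes of each role, with digits giving the replicate and a line the group mean, for the 3 genotypes. The 4 P81S means of the desaturases and elongases lie between 11.77 and 11.96 against 11.30 to 11.41 in the other arrays, while the mevalonate means run from 8.88 to 9.62 in P81S against 8.54 to 8.97.

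Among the mevalonate genes, 3 of 6 were higher in P81S against wildtype (median 0.42 log2) and 4 of 6 against R167Q (median 0.50). These are 50% and 66.7%, against 17.2% and 12.4% of all genes called higher. Hmgcs1, the cytosolic synthase that opens the pathway, read 11.21, 11.45, 11.26 and 10.66 log2 in P81S, against 10.54, 10.34 and 10.43 in wildtype and 10.38, 10.55 and 10.05 in R167Q. All P81S arrays were above the others, replicate 4 only by a small margin. The difference was 0.71 ± 0.18 log2 against wildtype (1.63-fold, adjusted p = 0.0095) and 0.81 ± 0.18 against R167Q (1.76-fold, adjusted p = 0.0078). With P81S replicates 1 and 2 left out, it was 0.52 log2 against wildtype (adjusted p = 0.0569). Hmgcs1 is also the only member with a promoter entry in which the strict sterol regulatory element was found.

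The mevalonate kinases differed less. Mvk read 8.64, 8.96, 8.85 and 8.70 log2 in P81S, against 8.60, 8.33 and 8.12 in wildtype and 8.20, 8.48 and 8.30 in R167Q. The groups did not overlap, though P81S replicate 1 and wildtype replicate 1 were neighbours. The difference was 0.44 ± 0.14 log2 against wildtype (1.36-fold, adjusted p = 0.0352) and 0.46 ± 0.14 against R167Q (1.38-fold, adjusted p = 0.0402). Pmvk, the kinase of the next step, read 8.02, 8.32, 8.36 and 8.32 log2 in P81S, against 7.90, 7.83 and 7.86 in wildtype and 7.86, 7.86 and 7.67 in R167Q. P81S replicate 1 was below the other P81S arrays but above every array of the other groups. Its difference was 0.39 ± 0.13 log2 against wildtype (1.31-fold, adjusted p = 0.0331) and 0.46 ± 0.13 against R167Q (1.38-fold, adjusted p = 0.0233).

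Both kinases lay near the threshold. The Mvk call against wildtype ended without P81S replicate 2 (adjusted p = 0.078), P81S replicate 3 (0.0828), wildtype replicate 2 (0.0992) or wildtype replicate 3 (0.147). The Mvk call against R167Q ended without P81S replicate 2, 3 or 4, R167Q replicate 1 or 3, or wildtype replicate 2 (adjusted p = 0.0549 to 0.155). The Pmvk call against wildtype ended without P81S replicate 2, 3 or 4 or any 1 wildtype array (adjusted p = 0.0641 to 0.0998). The Pmvk call against R167Q ended without P81S replicate 3 or 4 or R167Q replicate 1 or 3 (adjusted p = 0.0537 to 0.0951). Median centring also ended the Pmvk call against wildtype (0.35 log2, adjusted p = 0.0631), and chromosome centring the Mvk call against R167Q (0.43 log2, adjusted p = 0.0516). With only the compared groups in the model, the calls ended for Mvk against wildtype (adjusted p = 0.0564) and for Pmvk against wildtype (0.0572) and R167Q (0.0556).

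Fdps, which makes farnesyl diphosphate, read 10.02, 10.44, 10.20 and 9.55 log2 in P81S, against 9.70, 9.58 and 9.74 in wildtype and 9.49, 9.70 and 9.21 in R167Q. P81S replicates 1 to 3 were above all other arrays and replicate 4 lay among them. The difference was 0.58 ± 0.19 log2 against R167Q (1.5-fold, adjusted p = 0.0493) and 0.38 ± 0.19 against wildtype (adjusted p = 0.154). The call against R167Q was the weakest among the members and ended without any 1 wildtype array, P81S replicate 1, 2 or 3, or R167Q replicate 1 or 3 (adjusted p = 0.0599 to 0.184), and under median centring (adjusted p = 0.0529) or chromosome centring (adjusted p = 0.0604). Against wildtype it was called without P81S replicate 4 (0.55 log2, adjusted p = 0.0177). The remaining mevalonate enzymes were not called: Mvd, the decarboxylase, differed by 0.46 ± 0.21 log2 against wildtype (adjusted p = 0.114). Idi1, the isomerase, differed by -0.01 ± 0.29, and its P81S values ran from 8.27 to 9.84 with the largest SD among the members, 0.64. The other Idi1 probe set gave 0.09 ± 0.29 log2 against wildtype. Without P81S replicate 4, Mvd was called against wildtype (0.61 log2, adjusted p = 0.0291) and R167Q (0.69 log2, adjusted p = 0.0281).

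Of the 11 sterol enzymes from squalene synthase to the last reductase, 2 were higher in P81S against wildtype (median 0.30 log2) and 5 against R167Q (median 0.48). The former is 18.2%, near the 17.2% of all genes called higher, and the latter is 45.5% against 12.4%. Msmo1, the methylsterol monooxygenase, read 10.25, 10.86, 10.64 and 10.29 log2 in P81S, against 9.79, 9.80 and 9.97 in wildtype and 9.43, 9.84 and 9.75 in R167Q. All 4 P81S arrays were above the other 6. The difference was 0.65 ± 0.16 log2 against wildtype (1.57-fold, adjusted p = 0.00797) and 0.83 ± 0.16 against R167Q (1.78-fold, adjusted p = 0.00417). Sc5d, the sterol desaturase near the end of the pathway, read 9.43, 9.95, 9.67 and 9.48 log2 in P81S, against 9.31, 9.07 and 9.02 in wildtype and 8.89, 9.18 and 8.96 in R167Q. It too showed no overlap, with P81S replicate 2 the highest. Its difference was 0.50 ± 0.14 log2 against wildtype (1.41-fold, adjusted p = 0.0198) and 0.62 ± 0.14 against R167Q (1.54-fold, adjusted p = 0.0107). The call ended against wildtype without wildtype replicate 2 (adjusted p = 0.0729) or 3 (0.0792), and against R167Q without R167Q replicate 1 (0.0555).

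Cyp51, the lanosterol demethylase, read 9.64, 9.94, 9.77 and 9.08 log2 in P81S, against 9.12, 9.17 and 9.31 in wildtype and 8.83, 9.13 and 8.89 in R167Q. P81S replicate 4 lay within the range of the other groups and the rest above it. The difference was 0.66 ± 0.18 log2 against R167Q (1.57-fold, adjusted p = 0.0248) and 0.40 ± 0.18 against wildtype (adjusted p = 0.114). Tm7sf2, the sterol reductase that follows it, read 8.56, 8.94, 8.85 and 8.25 log2 in P81S, against 8.44, 8.20 and 7.96 in wildtype and 8.05, 8.20 and 7.72 in R167Q. All P81S arrays were above R167Q, and replicate 4 was below wildtype replicate 1. Its difference was 0.66 ± 0.19 log2 against R167Q (1.58-fold, adjusted p = 0.0314) and 0.45 ± 0.19 against wildtype (adjusted p = 0.101). Both calls against R167Q ended without P81S replicate 2 or 3 or R167Q replicate 1 or 3, at an adjusted p of 0.0527 to 0.101 for Cyp51 and 0.0693 to 0.132 for Tm7sf2. Without P81S replicate 4, both were called against wildtype (0.58 log2 each, adjusted p = 0.00604 for Cyp51 and 0.0332 for Tm7sf2).

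Dhcr7, the reductase that yields cholesterol, read 9.58, 9.56, 9.62 and 9.21 log2 in P81S, against 9.18, 9.16 and 9.21 in wildtype and 8.99, 9.15 and 8.90 in R167Q. P81S replicate 4 stood apart from the other P81S arrays, next to wildtype replicate 3. The difference was 0.48 ± 0.12 log2 against R167Q (1.39-fold, adjusted p = 0.0158) and 0.31 ± 0.12 against wildtype (adjusted p = 0.0693). Against R167Q the call ended without R167Q replicate 1 (adjusted p = 0.062) or 3 (0.0677), and against wildtype it was reached without P81S replicate 4 (0.40 log2, adjusted p = 0.0142). Without the same array Fdft1, Sqle, Lss and Nsdhl, the squalene synthase, squalene epoxidase, lanosterol synthase and a sterol demethylation enzyme, were called against R167Q (adjusted p = 0.0214, 0.0231, 0.0309 and 0.0216). With all arrays these 4 differed by 0.41 to 0.50 log2 against R167Q and 0.22 to 0.30 against wildtype and were not called. P81S replicate 4 was the lowest P81S array in these 4 and in Dhcr7, so leaving it out could only raise their differences. The same holds for Fdps, Mvd, Cyp51, Tm7sf2 and Srebf2. Hsd17b7 and Ebp, which act between lanosterol and cholesterol, were not called and differed by -0.46 ± 0.26 and -0.07 ± 0.09 log2 against wildtype.

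The 17 measured enzymes of cholesterol synthesis varied within the genotypes. P81S replicate 2 was the highest P81S array in 14 of the 17 and replicate 4 the lowest in 12. Replicate 2 was above every wildtype and R167Q array in 15, while replicate 4 was above all of them in 5, below all in 2 and within their range in 10. The median over the 17 enzymes, relative to the wildtype mean, was 0.30, 0.74, 0.50 and -0.03 log2 in P81S replicates 1 to 4. In replicate 4 enzymes thus lay on both sides of the wildtype values, while its median over the desaturases and elongases was 0.58 log2 above the wildtype mean. Within R167Q, replicate 2 was the highest or tied array in all 17 enzymes and replicate 3 the lowest in 12. Without P81S replicates 1 and 2, 3 of the 17 enzymes were higher against wildtype and 1, Hsd17b7, was lower (-0.79 log2, adjusted p = 0.0302). Without P81S replicates 3 and 4, 5 were higher and 0 lower. In either case 5 of the 6 desaturases and elongases were higher against wildtype.

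**Figure D5:**
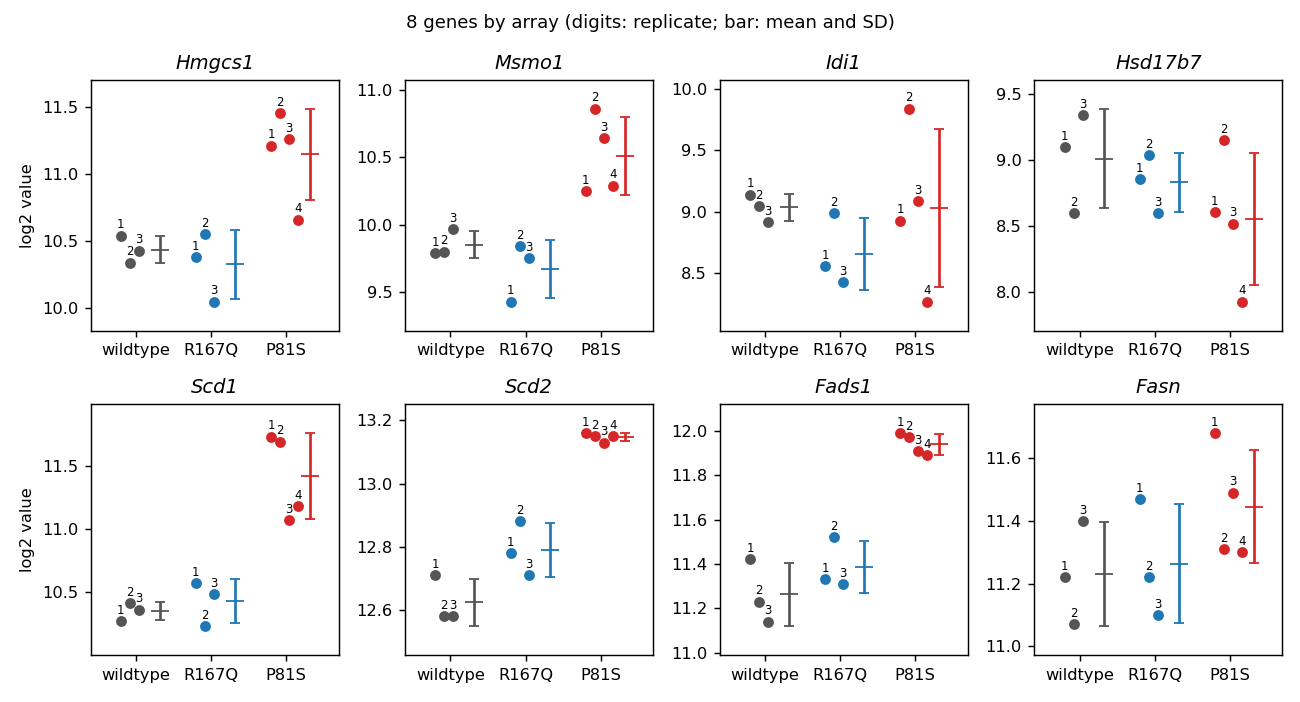
Log2 values of 8 genes by array, with digits giving the replicate and bars the mean and SD of the 3 or 4 arrays of a genotype. Scd2 varies by an SD of 0.01 in P81S and Idi1 by an SD of 0.64, and replicate 4 is the lowest P81S array in Hmgcs1, Idi1 and Hsd17b7.

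Of the regulators, 0 of 5 were called in P81S against wildtype (median 0.18 log2), and 1 of 5 was higher against R167Q (median 0.14). Of all genes, 34.7% were called against wildtype and 12.4% were higher against R167Q. Srebf2, the transcription factor of the cholesterol enzymes, read 10.82, 10.83, 10.69 and 10.15 log2 in P81S, against 10.28, 10.13 and 10.30 in wildtype and 10.19, 10.21 and 9.82 in R167Q. P81S replicates 1 to 3 were above all others and replicate 4 was among them. The difference was 0.55 ± 0.17 log2 against R167Q (1.46-fold, adjusted p = 0.0375) and 0.39 ± 0.17 against wildtype (adjusted p = 0.101). The call against R167Q ended without any 1 array other than P81S replicate 4 and R167Q replicate 2 (adjusted p = 0.0523 to 0.152). Against wildtype it was called without P81S replicate 4 (0.54 log2, adjusted p = 0.00632).

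Srebf1, the factor of fatty acid genes, had the opposite sign. It was -0.30 ± 0.16 log2 against wildtype and -0.21 ± 0.16 against R167Q, not called in either. P81S replicate 1 read 9.36 log2 and the other P81S arrays 8.59 to 8.89, below the wildtype range of 9.16 to 9.24. Without P81S replicate 1 it was lower against wildtype (-0.45 log2, adjusted p = 0.0116) and R167Q (-0.36 log2, adjusted p = 0.0428). That array is also the one with the high squamous and sebaceous mean of 8.53, and a link between these values was not tested.

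Scap, the escort of the precursors, read 10.20, 9.83, 9.94 and 9.92 log2 in P81S, against 9.92, 9.76 and 9.69 in wildtype and 9.78, 9.79 and 9.76 in R167Q. P81S was above R167Q in every array without passing the test (0.20 ± 0.11 log2, adjusted p = 0.229). A dimmer Scap probe set, with a mean of 5.89 log2, gave 0.26 ± 0.17 in the same comparison. Against wildtype the dimmer set gave 0.02 ± 0.17, where the brighter set gave 0.18 ± 0.11. Insig1, the sterol-dependent anchor, read 9.44, 9.70, 9.37 and 8.72 log2 in P81S, against 9.63, 9.47 and 9.66 in wildtype and 8.96, 9.25 and 9.29 in R167Q. P81S overlapped with both groups, and wildtype lay above R167Q. Its difference was -0.28 ± 0.20 log2 against wildtype and was called without P81S replicates 1 and 2 (-0.54 log2, adjusted p = 0.0487). Insig2, the related anchor, differed by 0.20 ± 0.09 log2 against wildtype (adjusted p = 0.115).

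Of the genes of fatty acid synthesis itself, 1 of 5 was higher in P81S against wildtype and 0 of 5 against R167Q, with medians of 0.02 and 0.09 log2. The former is 20%, near the 17.2% of all genes called higher, and the latter stands against 12.4%. Me1, the malic enzyme that supplies NADPH, read 10.64, 10.41, 10.38 and 10.97 log2 in P81S, against 10.09, 9.91 and 10.18 in wildtype and 9.78, 10.34 and 10.22 in R167Q. All P81S arrays were above the rest, with replicate 4 the highest. The difference was 0.54 ± 0.17 log2 against wildtype (1.45-fold, adjusted p = 0.0279) and 0.49 ± 0.17 against R167Q (adjusted p = 0.062). The call ended without P81S replicate 4 (adjusted p = 0.061), wildtype replicate 1 (0.0659) or wildtype replicate 2 (0.11), and against R167Q a call was reached without R167Q replicate 2 (0.60 log2, adjusted p = 0.0477). Its other probe set gave 0.52 log2 against wildtype.

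The main enzymes of the pathway were not called. Fasn, the fatty acid synthase, differed by 0.22 ± 0.12 log2 against wildtype (95% interval -0.06 to 0.49). Acly, which makes cytosolic acetyl-CoA, differed by -0.23 ± 0.12 (interval -0.49 to 0.03). Acaca and Acacb, the acetyl-CoA carboxylases, differed by -0.02 ± 0.11 and 0.02 ± 0.14. The other Acaca probe set gave -0.25 log2 (adjusted p = 0.215). Of these 4 genes, only Fasn had an interval that held 0.36 log2, the difference of Elovl5. These intervals are without chromosome centring, and Acacb read 6.76 to 7.12 log2 in P81S, beside array medians of 6.97 to 7.11.

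The chromosomes on which the members lie differed in their medians. These are medians over all genes of a chromosome, relative to each gene's mean over the wildtype and R167Q arrays. Srebf1, Acly, Acaca and Fasn lie on chromosome 11. Its median was -0.19 and -0.23 log2 in P81S replicates 1 and 2 and -0.01 and 0.02 in replicates 3 and 4. With each chromosome centred in each array, Fasn differed by 0.33 log2 against wildtype (adjusted p = 0.0908) and Srebf1 by -0.19. Acly then differed by -0.12 and Acaca by 0.09 against wildtype, and none of these genes was called. Msmo1 and Mvd lie on chromosome 8, whose median was 0.09 to 0.14 log2 in P81S, against -0.08 to 0.06 in wildtype and -0.02 to 0.04 in R167Q. With the same centring Msmo1 remained called, at 0.53 log2 against wildtype (adjusted p = 0.0237) and 0.73 against R167Q. Mvd differed by 0.33 log2 against wildtype (adjusted p = 0.257) and 0.43 against R167Q (adjusted p = 0.18) and was not called. Scd1, Scd2, Fads1, Fads2 and Tm7sf2 lie on chromosome 19, and medians of the chromosomes other than 8 and 11 were -0.08 to 0.12 log2 in P81S.

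In R167Q against wildtype, 0 of 33 members were called (limma), against 0.0903% of all genes (0.0638% higher and 0.0266% lower), and 1 passed an unadjusted p of 0.05. That gene was Scd2, at 0.17 ± 0.06 log2 (adjusted p = 0.457), with no R167Q array under the highest wildtype array, as in 6.93% of all genes. The differences of the 17 cholesterol enzymes were all negative, with a median of -0.17 log2 against -0.02 over all genes, and none passed the test. Without R167Q replicate 3 the median was -0.07 log2 with 15 of 17 negative, and without wildtype replicate 1 it was -0.09 with 16 negative. Insig1 was -0.42 ± 0.21 log2 (adjusted p = 0.564) and Dhcr7 -0.17 ± 0.13 (adjusted p = 0.721), with all R167Q arrays below all wildtype arrays in both, as in 12.4% of all genes (19.3% did not overlap in either direction). For Hmgcs1 the 95% interval ran from -0.52 to 0.31 log2 and for Scd1 from -0.31 to 0.47.

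Of 25 further genes of lipid synthesis, 21 were measured. Against wildtype 7 were higher and 1 lower in P81S (median 0.15 log2), which is 38.1%, near the 34.7% of all genes called. Against R167Q 5 were higher and 1 lower (median 0.20), which is 28.6% against 22.5%. Fads3, the neighbour of Fads1 and Fads2 in the family, read 10.27, 9.96, 10.05 and 10.05 log2 in P81S, against 8.99, 8.80 and 8.72 in wildtype and 8.87, 9.43 and 9.12 in R167Q. The groups did not overlap, and the difference was 1.25 ± 0.14 log2 against wildtype (2.37-fold, adjusted p = 0.000107) and 0.94 ± 0.14 against R167Q (1.92-fold, adjusted p = 0.00141). Elovl4, the elongase of very long chains, was 0.90 ± 0.15 log2 higher against wildtype (adjusted p = 0.00101) and 0.89 ± 0.15 against R167Q (adjusted p = 0.00251). Tecr, the reductase that ends each elongation cycle, was 0.47 ± 0.07 higher against wildtype (adjusted p = 0.000428) and 0.42 ± 0.07 against R167Q (adjusted p = 0.00207).

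Further calls in this list fell on activation and regulation. Acsl4, which activates arachidonate, was 0.56 ± 0.13 log2 higher against wildtype (adjusted p = 0.00569) and 0.45 ± 0.13 against R167Q (adjusted p = 0.0264). Mid1ip1, a partner of acetyl-CoA carboxylase, was 0.60 ± 0.18 higher against wildtype (adjusted p = 0.025) and 0.67 ± 0.18 against R167Q (adjusted p = 0.0225). Scd3, a further stearoyl-CoA desaturase, was 0.56 ± 0.16 higher against wildtype (adjusted p = 0.0205) and differed by 0.48 ± 0.16 against R167Q without being called (adjusted p = 0.0594). It read 7.36 to 7.95 log2 in P81S, against 6.96 to 7.23 in wildtype, well below Scd1 and Scd2. Whether its probes share signal with those of Scd1 and Scd2 was not tested. Mbtps1, the protease that makes the opening cut in the sterol regulatory element-binding proteins, was the gene called lower and is named for that, after its values were seen. It differed by -0.52 ± 0.16 log2 against wildtype (adjusted p = 0.0288) and -0.57 ± 0.16 against R167Q (adjusted p = 0.0287). It read 10.43 to 11.21 in P81S, against 11.31 to 11.50 in wildtype and 11.33 to 11.65 in R167Q, so its groups did not overlap.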

How the data were processed

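Each of the 10 teratomas was hybridised to its own 1-colour Affymetrix array, and per the labels' protocols its RNA was primed with oligo(dT), amplified in vitro and marked with biotin. The deposited values are log2 expression values, 1 per probe set and array, on 1 scale in all arrays, and RMA and Partek appear in the submitters' processing notes with no version or setting. If arrays were set to 1 distribution, differences are relative to the other transcripts of an array. Scanner files were not used here, so signal over background is unknown. The precision is set by the number of arrays.

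Of 35556 probe sets, 21218 were paired with 1 gene by the platform annotation, 1881 with several and 5841 with none, and 6616 in an unannotated block with the lowest numbers were left out. Entrez numbers of 21185 matched a RefSeq table (GRCm38.p6) and 0 symbols were updated. The probe set with the highest mean stood for each of 18820 genes, of which 1386 had several, as did 4 members. All 10 value columns were used. Members were matched by symbol, as were promoters.

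All arrays entered 1 model with 3 group means in limma 3.58.1 (R 4.3.3, statmod 1.5.0; two-sided moderated test with a trended variance), with 7 residual and 3.85 prior degrees of freedom. P-values were adjusted by Benjamini-Hochberg over all genes of a comparison, and a gene was called at an adjusted p under 0.05. The script was tested on simulated data. Members called in any comparison, or whose groups did not overlap in any, have values for every array, which holds for 18. Of the 3 lists of other lipid genes, called genes with the 5 smallest p per list and comparison are named. The members and lists were chosen with earlier results of these data known. The 26 alternatives covered normalization, centring, probe set choice, variance models, array weights, blocks, and arrays left out (10 of the 26 leave out 1 array).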

Additional observations from a re-analysis of the deposited data

Results flagged for a closer look

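In 2 of the 33 members, 1 P81S array lay far from the other P81S arrays by Dixon's test, whose critical value for 4 samples is 0.829. Chance alone marks about 1 in 20 groups, and wildtype and R167Q were too small to be tested. Pmvk, the phosphomevalonate kinase, read 8.02 log2 in P81S replicate 1 against 8.32 to 8.36 in the other P81S arrays, a gap of 0.868 of the range. Dhcr7, the reductase that yields cholesterol, read 9.21 log2 in P81S replicate 4 against 9.56 to 9.62, a gap of 0.861 of the range. Even so, the Pmvk value lay above all wildtype and R167Q arrays.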

How the results depend on the processing

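Against wildtype, 6 of the 11 member calls (Elovl5, Fads1, Fads2, Msmo1, Scd1 and Scd2) held under all 26 alternatives, and against R167Q 6 of 15 did (Fads1, Fads2, Hmgcs1, Msmo1, Scd1 and Scd2). No call reversed, and 13 of 22 and 8 of 18 members not called gained a call under at least 1 alternative. Some of these gains came from leaving out the P81S array nearest the other group, which widens a difference by construction. With array weights, 20 members were higher and 1, Srebf1, lower against wildtype, while calls over all genes rose from 6530 to 8669. Without P81S replicates 1 and 2, 3 were lower against wildtype (Hsd17b7, Srebf1 and Insig1) and 8 higher against R167Q, while calls over all genes rose to 6933 and 5030. Without P81S replicates 3 and 4, 2419 genes were called against R167Q in place of 4234. With only the compared groups in the model, calls against R167Q also ended for Cyp51, Fdps, Srebf2 and Tm7sf2 (adjusted p = 0.0587, 0.0994, 0.0794 and 0.0546). For R167Q against wildtype, 17 genes were called, 11 with genes of a mean of at least 6 log2, 28 with all probe sets, 26 with only these groups in the model and 42 with array weights, and 0 members in each. The causes were not tested.

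Leaving out 1 array at a time gave 7 to 15 members higher and 0 to 1 lower against wildtype, with 5073 to 6953 genes called. Against R167Q it gave 6 to 18 higher and 0 to 1 lower, with 2328 to 4916 genes called (2328 without R167Q replicate 1). For R167Q against wildtype it gave 5 to 21 genes and 0 members. The replicate numbers do not pair the samples: deviations of same-numbered arrays correlated with r of -0.28 to 0.21. With the replicate number as a block, 15 members were higher against wildtype and 17 against R167Q, 0 were lower, and 5368, 2952 and 15 genes were called in P81S against wildtype, P81S against R167Q and R167Q against wildtype. The block ended the calls of Mvk (adjusted p = 0.0727 and 0.0889) and Pmvk (0.122 and 0.102) against wildtype and R167Q, of Me1 against wildtype (0.0995) and of Elovl5 against R167Q (0.0696). P81S replicate 4 is alone in its block and adds nothing to these differences.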

Other observations

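Genes that move or store lipid were examined beside those that make it. Of 13 measured genes of sterol uptake, export and turnover, 3 were higher and 0 lower in P81S against wildtype (median 0.17 log2, against 0.01 over all genes). Against R167Q 2 were higher (median -0.04). The shares called were 23.1% and 15.4%, below the 34.7% and 22.5% of all genes. Cyp46a1, the hydroxylase by which neurons clear cholesterol, read 8.14, 8.57, 8.81 and 9.05 log2 in the 4 P81S arrays, against 7.65, 7.71 and 7.22 in wildtype and 7.13, 7.70 and 7.36 in R167Q. Its groups did not overlap, and the difference was 1.12 ± 0.23 log2 against wildtype (2.17-fold, limma adjusted p = 0.00301) and 1.25 ± 0.23 against R167Q (2.37-fold, adjusted p = 0.00338). Lrp8 and Vldlr, lipoprotein receptors that also bind reelin, were 1.07 ± 0.16 and 0.94 ± 0.14 log2 higher against wildtype (adjusted p = 0.000469 and 0.000481). Against R167Q, Lrp8 was 0.66 ± 0.16 higher (adjusted p = 0.0131), and Vldlr differed by 0.40 ± 0.14 (adjusted p = 0.0667). The neuron marker means of 11.65 to 12.04 in P81S against 10.70 to 11.16 in wildtype stand beside these values, and their part was not tested.

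Of 9 genes of glycerolipid synthesis and lipid droplets, 2 were higher and 1 lower in P81S against wildtype, and 0 were higher and 1 lower against R167Q. The shares called were 33.3% and 11.1%, against 34.7% and 22.5% of all genes. Agpat2, an acyltransferase that makes phosphatidic acid, read 8.74, 8.02, 7.97 and 7.96 log2 in P81S, 9.40, 9.17 and 9.32 in wildtype and 9.12, 8.78 and 9.30 in R167Q. All P81S arrays were below the rest, by -1.13 ± 0.20 log2 against wildtype (2.18-fold lower, adjusted p = 0.00137) and -0.89 ± 0.20 against R167Q (1.85-fold lower, adjusted p = 0.00932). Dgat2, which makes triglyceride, was 0.70 ± 0.22 log2 higher against wildtype (adjusted p = 0.0264) and highest in P81S replicate 1, at 9.47 against 8.48 to 8.96 in the other P81S arrays. Lpin1, a phosphatidate phosphatase, was 0.33 ± 0.12 higher (adjusted p = 0.0497). In R167Q against wildtype, 0 genes of these lists were called.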
